A study of Mus musculus with 75 samples.

Results

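The genes described here are the D-type cyclins Ccnd1, Ccnd2 and Ccnd3, their partner kinases Cdk4 and Cdk6, and 5 inhibitors of these kinases, Cdkn1a, Cdkn1b, Cdkn2a, Cdkn2b and Cdkn2c. They were chosen by name, 10 of 20585 genes in the tissue table and 10 of 16887 in the parabiosis table, and the transcript row with the highest mean was used for each. All mice were C57BL/6, and the titles of the tissue libraries carry the genotype label WT (wild type). In the tissue experiment, 11 organs were taken from untreated aged mice (22 months) and untreated young mice (3 months), 3 animals of each age, perfused with PBS. In the parabiosis experiment, choroid plexus was taken from mice whose circulations had been joined by surgery, either to a partner of the other age (heterochronic) or of their own age (isochronic). It held 2 old heterochronic and 3 old isochronic libraries (22 months), and 3 young heterochronic and 3 young isochronic libraries (3 months). Aged groups held 3 libraries (liver 2), and young groups held 3 (bone marrow and cervical lymph nodes 2).

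D-type cyclins are the regulatory subunits that activate Cdk4 and Cdk6 in G1, and the active kinases phosphorylate the retinoblastoma protein, which releases E2F factors and allows entry into S phase. The INK4 proteins (from Cdkn2a, Cdkn2b and Cdkn2c) bind Cdk4 and Cdk6 and keep them from the cyclin, and the Cip/Kip proteins (from Cdkn1a and Cdkn1b) bind cyclin-kinase complexes. In senescent cells, p21 from Cdkn1a and p16Ink4a from Cdkn2a accumulate and hold cells out of the cycle, and both are widely used as markers of that state. The epithelium of the choroid plexus, the organ that secretes cerebrospinal fluid, divides little in adults.

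Values are a deposited signal per transcript, reads multiplied by one factor per library, with 1 read worth 0.527 to 2.19 in the tissue table and 0.783 to 1.48 in the parabiosis table. Depth was 187380 to 1133459 reads per library in tissues and 532943 to 988893 in parabionts. All 8 markers of choroid plexus epithelium were above 0 in the choroid plexus libraries of both experiments. The library of young mouse 2 held markers of another organ in several tissues, such as a summed lung epithelium signal of 35238 in spleen, where the other spleen libraries reached 80.9 at most. It also held a colon epithelium signal of 5360 in mesenteric lymph nodes, against 32.9 at most in the other libraries. Outside the choroid plexus, log2 differences of a single gene and tissue are therefore also given without that mouse where leaving it out changes their sign or moves them by over 1.5 times. Aged mouse 3 stood apart in inguinal lymph nodes, with a summed fat cell marker signal of 20066, against 247 and 277 in the other 2 aged libraries. Choroid plexus RNA was purified with another kit than RNA of the other tissues, per the labels' protocols, so organ and kit cannot be told apart where choroid plexus is set against other tissues.

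Of the 7 genes that could be tested in choroid plexus, Ccnd2 alone passed the test between ages, and it was lower in the older animals of both experiments. Ccnd2 (NM_009829), the D cyclin with known roles in neural progenitors and B cells, had 231, 251 and 206 in aged choroid plexus, against 494, 460 and 451 in young choroid plexus. Every aged library lay far below every young one, where 5.82% of all genes tested had an aged group wholly lower. Ccnd2 averaged 229 ± 22.2 in aged and 468 ± 22.5 in young choroid plexus (SD, n = 3 each), and it fell by 51.0% on the log2(value + 1) scale. The log2 difference was -1.03 with a standard error of 0.15 and a 95% interval from -1.33 to -0.74, and the limma adjusted p was 3.73e-05. Among 11650 genes tested in choroid plexus, 0.0429% were called lower and 0.292% were called in either direction. Between 180 and 495 reads stood behind each of these values. The call was lost when all tissues were fitted together (adjusted p = 0.255) and when the mean-variance trend was dropped (adjusted p = 0.467), at the same log2 difference. In bulk tissue, fewer cells of a type and less RNA per cell cannot be told apart.

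Isochronic parabionts gave a second set of aged and young animals. Ccnd2 had 196, 188 and 181 in old isochronic parabionts, against 263, 276 and 272 in young isochronic parabionts. The groups did not overlap, as for 4.98% of all genes in that direction, and averaged 188 ± 7.66 in old and 270.3 ± 6.53 in young isochronic parabionts (SD, n = 3 each). Ccnd2 fell by 30.2%, a log2 difference of -0.52 with a standard error of 0.09, a 95% interval from -0.69 to -0.34 and an adjusted p of 0.00178. Of 14476 genes tested in parabionts, 0.0345% were called lower in this comparison and 0.173% were called in either direction. No gene of the parabiosis table exceeded 993 reads, and Ccnd2 had 152 to 352. The adjusted p was 0.0511 without old isochronic parabiont 23 and 0.253 without the mean-variance trend.

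Heterochronic parabionts showed a difference in the same direction that did not pass the test. Ccnd2 had 203 and 225 in old heterochronic parabionts, against 314, 254 and 290 in young heterochronic parabionts, and the groups did not overlap, as for 11.6% of all genes in that direction. The log2 difference was -0.42 with a standard error of 0.10, a 95% interval from -0.61 to -0.22 and an adjusted p of 0.0710, where 0.124% of the genes tested were called. It passed when libraries were scaled to equal sums (adjusted p = 0.0235), under quantile normalization (0.00124) and without young heterochronic parabiont 14 (0.0474). The age difference in heterochronic parabionts minus that in isochronic parabionts was 0.10, with a 95% interval from -0.16 to 0.37 and an adjusted p of 0.93, and 0.0% of the genes were called for that difference of differences, where 911 of 14476 had an unadjusted p under 0.05.

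Joining to a partner of the other age gave no called change of Ccnd2. Both old heterochronic values, 203 and 225, lay above the 3 old isochronic ones, at 181 to 196. That log2 difference was 0.18, with a 95% interval from -0.02 to 0.38 and an adjusted p of 0.61. Ccnd3 also lay wholly above, at 218 and 227 in old heterochronic and 190 to 207 in old isochronic animals, where 13.7% of all genes did so. Cdk6 rested there on 1 and 2 reads in old heterochronic animals and on 1 read or none in old isochronic ones, so its order is not read. In that comparison 0.0% of genes were called by limma, and 1266 had an unadjusted p under 0.05. Young heterochronic and young isochronic parabionts overlapped, with a log2 difference of 0.08 and a 95% interval from -0.10 to 0.25 (adjusted p = 0.93). There too 0.0% of genes were called, and 919 had an unadjusted p under 0.05. These comparisons share libraries with the age comparisons above, so they are not independent of them.

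**Figure D1:**
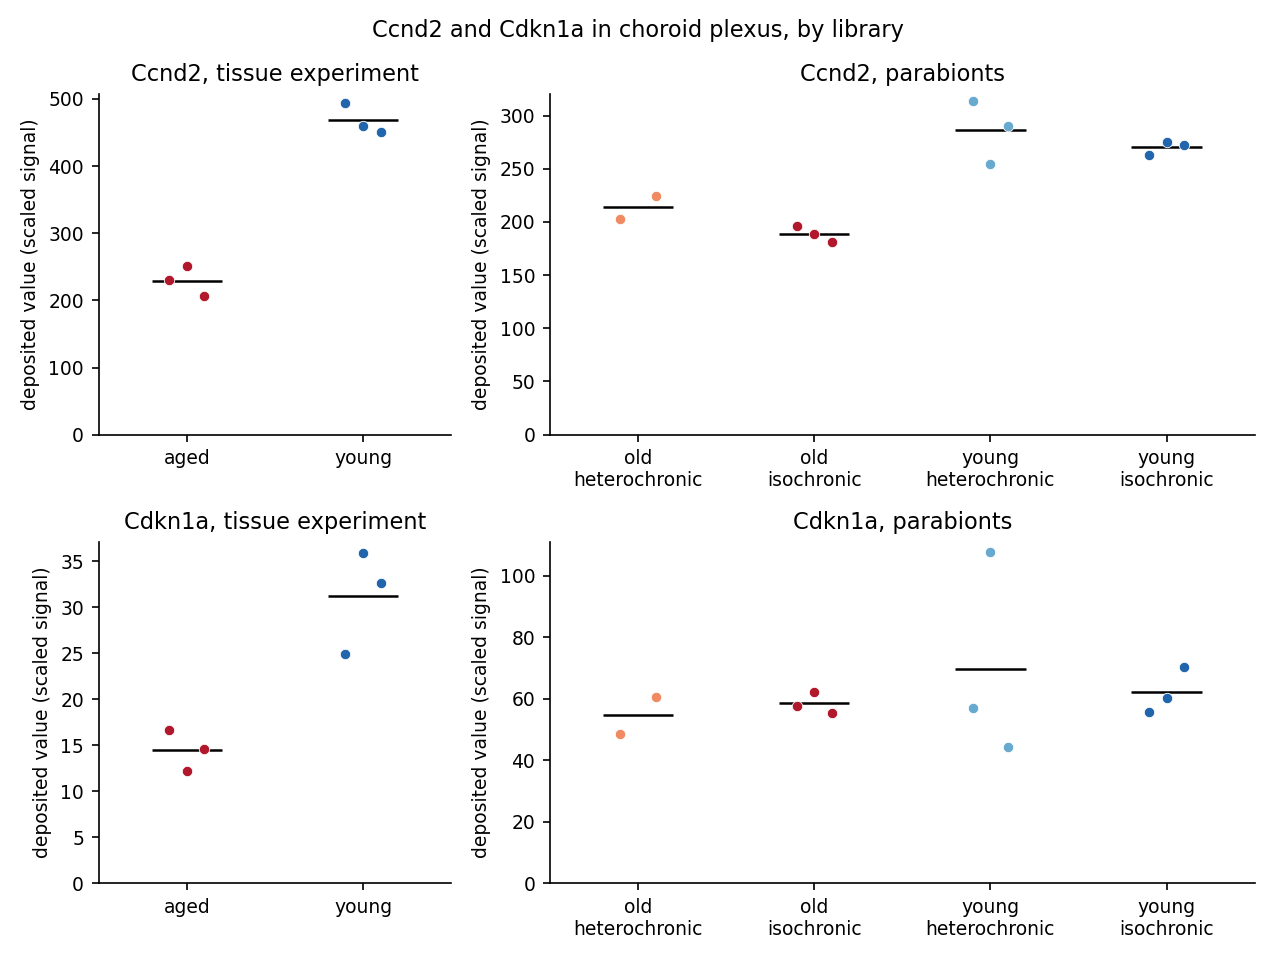
Deposited values (y axis, scaled signal) of Ccnd2 (top) and Cdkn1a (bottom) in choroid plexus, one point per library with a bar at the group mean, in the tissue experiment (left) and in parabionts (right). Ccnd2 lay at 206 to 251 in aged and 451 to 494 in young mice, and all 5 old parabionts lay below all 6 young ones, while the Cdkn1a gap of the tissue experiment has no counterpart in parabionts.

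Sums of cell markers were set beside Ccnd2 in the choroid plexus. None of those given here separated the ages in the same direction in both experiments. The summed signal of the 8 epithelial markers was 213251 to 257813 in aged and 227735 to 274994 in young choroid plexus. It was 2827 to 3070 in old isochronic and 2736 to 3340 in young isochronic parabionts, so groups overlapped in both experiments. Hepatocyte markers, which share Ttr with this list, summed to 207961 to 253421 in aged choroid plexus, so Ttr may make up most of the epithelial sum. In parabionts no gene exceeded 993 reads, and whether this limited differences of abundant markers was not tested. The overlap is therefore not read as equal epithelial content. At least 4 of the 6 macrophage and microglia markers were above 0 in every one of these libraries. Their sum was 90.4 to 231 in aged and 62.1 to 67.1 in young choroid plexus, but 182 to 194 in old isochronic and 202 to 238 in young isochronic parabionts. Sums of 4 endothelial markers were 23.5 to 42.2 in aged and 35.9 to 51.4 in young choroid plexus, and 154 to 182 in old isochronic and 193 to 211 in young isochronic parabionts. The 5 fibroblast and matrix markers summed to 209 to 237 in aged and 208 to 296 in young choroid plexus, and to 324 to 349 in old isochronic and 386 to 428 in young isochronic parabionts. The part of these cells in the Ccnd2 result was not tested.

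Across tissues, the choroid plexus had the highest Ccnd2 level of young mice. Its 3 young libraries (451 to 494) lay above all libraries of the next tissue, colon (197 to 376). Mesenteric lymph nodes followed at 236 to 286, and from colon downward each tissue overlapped the next in order, to the liver, lowest at 30.4 to 65.2. In aged mice the choroid plexus (206 to 251) lay within the range of the aged lymph nodes, whose inguinal libraries had 176, 254 and 258. The Ccnd2 age difference of choroid plexus minus the mean of the other 10 tissues was -1.16 on the log2 scale, with a standard error of 0.33, a 95% interval from -1.83 to -0.49 and an adjusted p of 0.18. It did not pass, in a comparison that called 0.203% of 17238 genes.

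Colon was the other tissue in which every aged library had less Ccnd2 than every young one. Ccnd2 had 184, 162 and 119 in aged colon, against 197, 228 and 376 in young colon. The log2 difference was -0.75 with an adjusted p of 0.24, and it ran from -0.94 to -0.47 as each library was left out in turn. Spleen ran the other way, with 202, 280 and 206 in aged and 143, 141 and 199 in young mice, a log2 difference of 0.51 and an adjusted p of 0.54. Groups without overlap were common: 6.7% of all genes tested in colon had an aged group wholly below the young one, and 8.48% in spleen had one wholly above.

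Over the 11 tissues the 10 genes gave 96 tested pairs of gene and tissue, and Ccnd2 in choroid plexus was the only pair called. The share of all genes called in each tissue was 0.0536% in bone marrow, 0.0308% in cervical lymph nodes, 0.123% in colon and 1.1% in thymus. It was 0.15% in spleen, 0.0337% in mesenteric lymph nodes, 0.0234% in lung and 0.0168% in liver. It was 0.0% in hippocampus and in inguinal lymph nodes, where 422 of 12441 and 557 of 12061 genes had an unadjusted p under 0.05. Without young mouse 2, the same pair was the only one called, and 20 of the 96 log2 differences had the opposite sign, the largest of them 0.76 in size with all libraries.

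**Figure D2:**
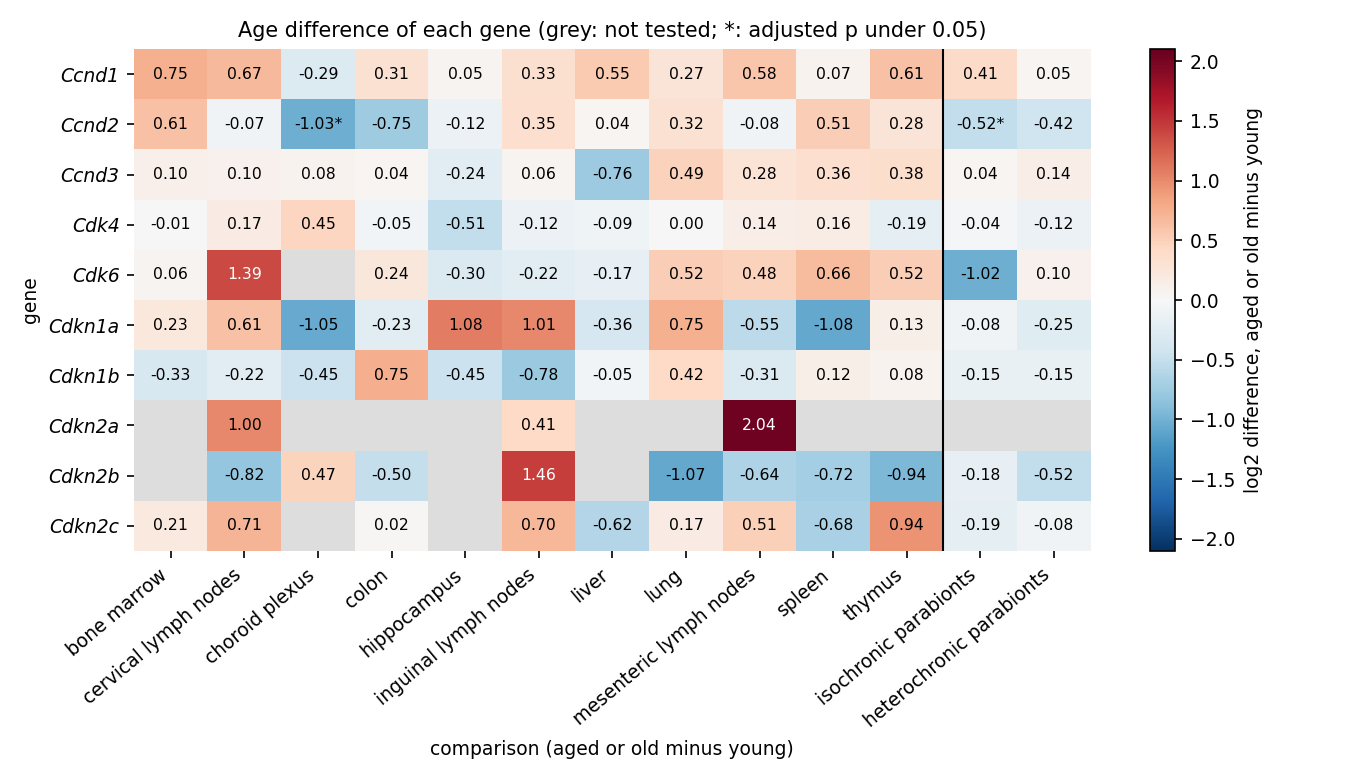
Log2 difference, aged or old minus young, of each of the 10 genes (rows) in 11 tissues and in isochronic and heterochronic parabionts (columns); grey cells were not tested and an asterisk marks an adjusted p under 0.05. Ccnd2 in choroid plexus (-1.03) and in isochronic parabionts (-0.52) are the 2 marked cells, and Ccnd1 is above 0 in 10 of 11 tissues.

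Ccnd1 (NM_007631), the D cyclin induced by many growth factor and Wnt signals, was above 0 in 10 of 11 tissues and passed the test in none, with a smallest adjusted p of 0.46. All tissues come from the same 6 mice, so these differences are not independent. Ccnd1 had 114, 118 and 126 in aged cervical lymph nodes, against 65.5 and 84.2 in young ones. It had 78.5, 98.9 and 86.9 in aged mesenteric lymph nodes, against 70.2, 49.6 and 57.5 in young ones. In both, every aged library was above every young one, with log2 differences of 0.67 (adjusted p = 0.61) and 0.58 (adjusted p = 0.56). Bone marrow and colon also had aged groups wholly above the young ones. Among all genes tested, that held for 12.8% in cervical and 9.02% in mesenteric lymph nodes, 12.1% in bone marrow and 9.66% in colon.

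Choroid plexus was the tissue where Ccnd1 did not lie above 0, with 10.2, 8.55 and 12.3 in aged and 9.98, 13.8 and 15.1 in young mice. The groups overlapped, with a log2 difference of -0.29 and a 95% interval from -1.09 to 0.51. Choroid plexus was also among the tissues with the least Ccnd1: young means were 10.8 in bone marrow, 12.9 in choroid plexus and 19.2 in thymus, whose ranges overlapped, then 47.9 in hippocampus and up to 124 in lung. In parabionts Ccnd1 had 30.4 and 47.3 in old heterochronic, 63.5, 46.0 and 68.1 in old isochronic, 26.7, 45.9 and 40.3 in young heterochronic and 49.5, 36.0 and 47.0 in young isochronic animals. Old heterochronic minus old isochronic was -0.61 on the log2 scale, with a 95% interval from -1.06 to -0.16 and an adjusted p of 0.48. Old minus young isochronic was 0.41, with an interval from 0.01 to 0.81 and an adjusted p of 0.97. The groups overlapped in each of the 4 comparisons.

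Ccnd3, the D cyclin known for its role in thymocyte expansion, was highest in thymus and bone marrow and passed the test in no tissue. Its 3 RefSeq rows hold identical values, so transcripts could not be told apart. Ccnd3 had 607, 579 and 547 in aged thymus, against 643, 307 and 445 in young thymus. It had 308, 243 and 267 in aged choroid plexus, against 241, 269 and 262 in young choroid plexus, a log2 difference of 0.08 in the organ where Ccnd2 fell. In parabionts it spanned 190 to 227 in old and 178 to 223 in young animals. In liver, young mouse 2 had 292, against 60.7 and 39.8 in the other young livers, and the log2 difference of -0.76 became 0.09 without it. That library also held a T cell marker signal of 1152, where the other livers reached 17.7 at most.

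**Figure D3:**
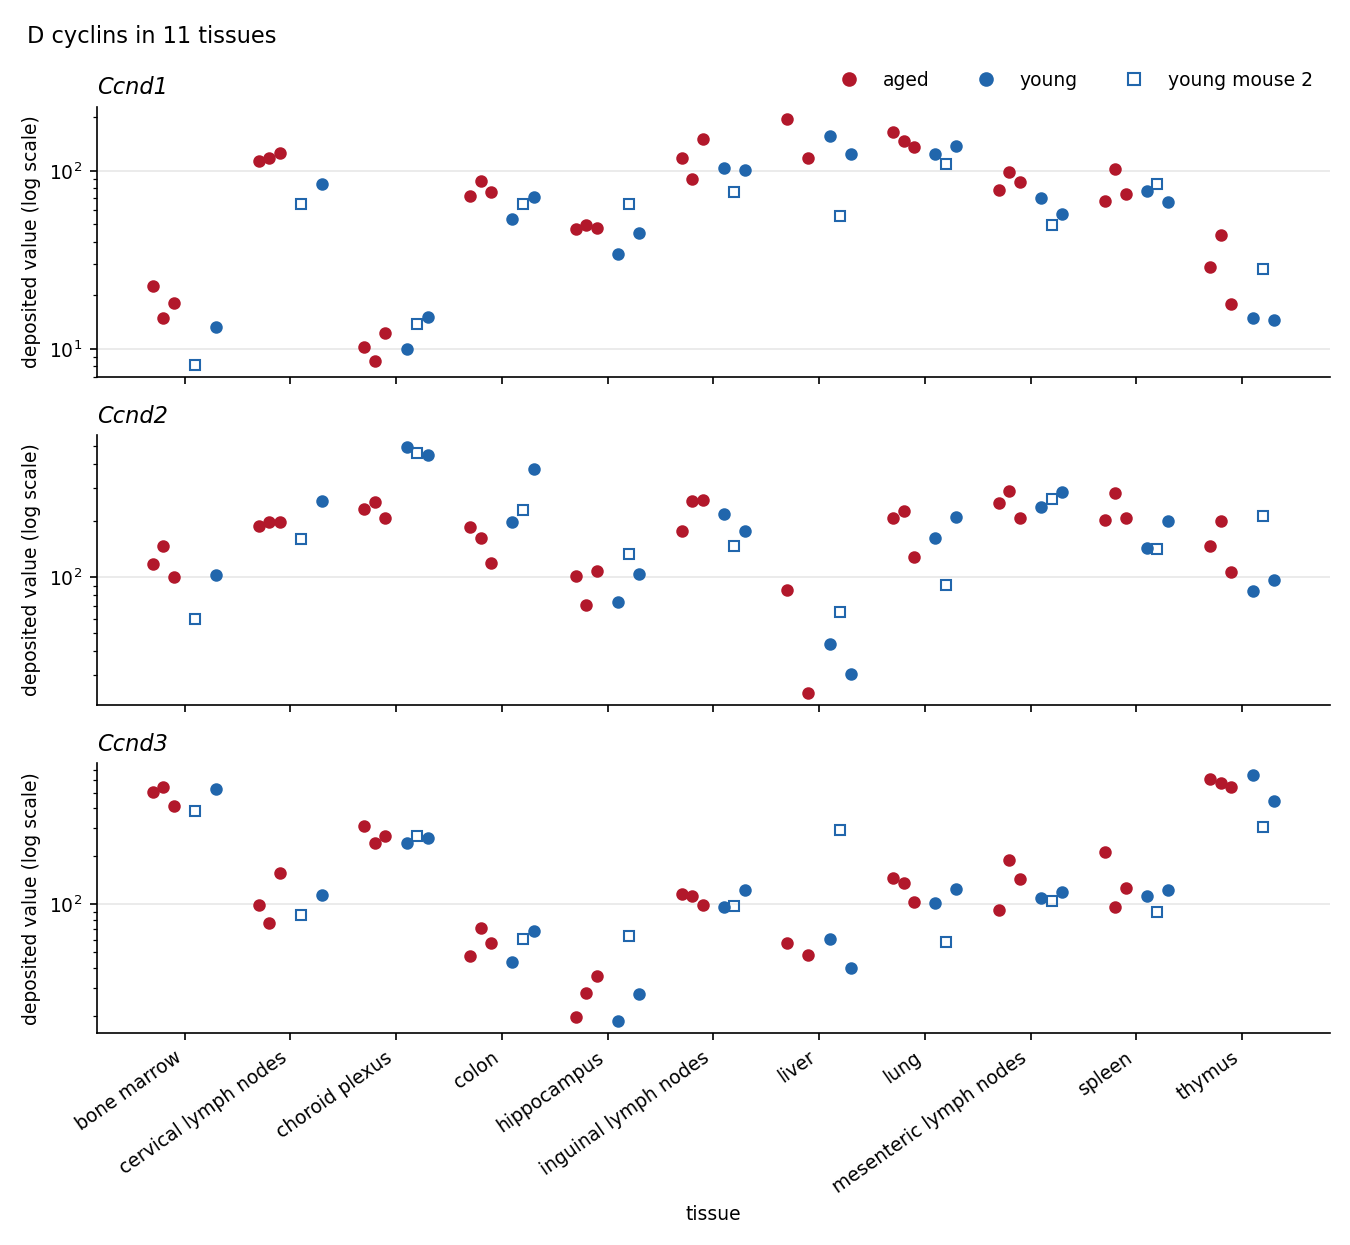
Deposited values (y axes, log scale) of Ccnd1, Ccnd2 and Ccnd3 by tissue, one point per library, aged left of young, with young mouse 2 as open squares. In choroid plexus Ccnd2 separates by age (206 to 251 in aged, 451 to 494 in young) while Ccnd3 overlaps, and the open square of Ccnd3 in liver lies at 292.

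Neither kinase was called in any comparison. Cdk4 (NM_009870), which pairs with the D cyclins, spanned log2 differences from -0.51 in hippocampus to 0.45 in choroid plexus over the 11 tissues, with a smallest adjusted p of 0.75. It had 69.1, 56.2 and 55.9 in aged choroid plexus, against 32.9, 56.6 and 45.2 in young choroid plexus, and the groups overlapped. In hippocampus it had 42.0, 45.7 and 41.7 in aged and 52.7, 77.2 and 58.2 in young mice, the single tissue with an aged group wholly below the young one, as for 3.58% of all genes tested there. In parabionts all 4 comparisons lay between -0.12 and -0.01 on the log2 scale. Its level was highest in bone marrow, at 148 to 181 in aged and 157 to 165 in young mice.

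Cdk6 (NM_009873), the alternative partner of the D cyclins and a kinase of blood progenitors, was also highest in bone marrow, at 37.2 to 75.4 in aged and 44.1 to 66.8 in young mice. In choroid plexus it was at 0, 1.70 and 0 in aged and 0.998, 0 and 1.25 in young mice, at most 1.39 reads, and was not tested there. In parabionts it stayed between 0 and 3.30 in all 11 libraries. Cervical lymph nodes had 8.32, 8.55 and 11.2 in aged and 0.830 and 7.40 in young mice, a log2 difference of 1.39 with an adjusted p of 0.66. The 0.830 is that of young mouse 2, whose library there held a neuron marker signal of 1497, where the other libraries reached 34.9 at most. Without it the log2 difference was 0.29.

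Cdkn1a, which encodes p21, the inhibitor induced by p53 and a marker of senescence, did not rise with age in any tissue by the test. It was above 0 in 6 and below 0 in 5 tissues, with log2 differences from -1.08 in spleen to 1.08 in hippocampus. Without young mouse 2 it was above 0 in 7 and below 0 in 4, at -0.25 in spleen and 1.64 in hippocampus. In hippocampus Cdkn1a had 6.12 to 17.7 in aged mice and 0, 10.7 and 12.1 in young mice, where 10.7 is young mouse 2. The hippocampus difference thus rests on a young library at 0, while the other young values lie within the aged range. In choroid plexus it had 16.6, 12.2 and 14.5 in aged and 25.0, 35.9 and 32.6 in young mice. Every aged library was below every young one, as for 5.82% of all genes tested there. Its log2 difference of -1.05 (95% interval -1.68 to -0.42) was as large as that of Ccnd2, but its adjusted p was 0.29, and it stayed between 0.23 and 1 under the alternatives tried. Parabionts did not repeat this: Cdkn1a had 57.7, 62.2 and 55.4 in old isochronic and 55.7, 60.3 and 70.1 in young isochronic animals, a log2 difference of -0.08 with an interval from -0.57 to 0.41. Young heterochronic parabionts ranged from 44.3 to 108.

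Elsewhere Cdkn1a differed between tissues and between single libraries. Colon had the highest levels, at 148 to 189 in aged and 184 to 233 in young mice. Lung had 59.6, 178 and 147 in aged and 43.2, 85.7 and 86.4 in young mice, a log2 difference of 0.75 with an interval from -0.18 to 1.69. In spleen the young libraries had 11.6, 64.0 and 9.82, where the high value is that of young mouse 2. Its library in mesenteric lymph nodes was likewise at 91.2, against 11.2 and 22.4 in the other young nodes. Without it the mesenteric log2 difference of -0.55 became 0.26. In inguinal lymph nodes the aged libraries had 16.4, 26.5 and 72.2, where the high value belongs to aged mouse 3, the library with fat cell markers at 20066.

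Cdkn1b (NM_009875), which encodes p27, an inhibitor that holds resting cells out of the cycle, was above 0 in 4 and below 0 in 7 tissues, and in 3 and 8 without young mouse 2. Colon had 35.2, 33.0 and 48.6 in aged and 24.0, 18.4 and 25.2 in young mice. These groups did not overlap, as for 9.66% of all genes in that direction, with a log2 difference of 0.75 (standard error 0.26) and an adjusted p of 0.29. Choroid plexus had 18.5, 17.4 and 24.9 in aged and 26.4, 30.2 and 26.7 in young mice, again without overlap, with a log2 difference of -0.45 and an adjusted p of 0.87. With Ccnd2 and Cdkn1a, that made 3 of the 7 genes tested in choroid plexus wholly lower in aged mice, where 5.82% of all genes were, and none was wholly higher. Bone marrow had 32.0, 40.4 and 35.9 in aged and 44.6 and 46.2 in young mice, a log2 difference of -0.33 with an adjusted p of 0.86, where 9.83% of all genes had an aged group wholly lower. In parabionts Cdkn1b had 68.6 and 69.5 in old heterochronic and 68.2 to 71.8 in old isochronic animals, against 67.8 to 83.5 in young heterochronic and 68.5 to 89.2 in young isochronic animals.

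Cdkn2a gives rise to 2 proteins from separate first exons, p19Arf, which stabilises p53, and p16Ink4a, which blocks Cdk4 and Cdk6. Its promoters are shown because the table lists a row for each transcript. The windows below, from RefSeq (GRCm38.p6, minus strand of chromosome 4), run from 250 bases before to 50 bases after a start, and the starts lie 12427 bases apart. The first is chr4:89294570-89294869, whose start lies 34 bases from that annotated for NM_009877, and the second is chr4:89282143-89282442, at the start of NM_001040654. Capitals mark, on either strand, the E2F motif TTTCCCGC and the GC box GGGCGG, whose matches do not overlap. A second E2F motif, TTTGGCGC, was searched on both strands as well.
p19Arf start: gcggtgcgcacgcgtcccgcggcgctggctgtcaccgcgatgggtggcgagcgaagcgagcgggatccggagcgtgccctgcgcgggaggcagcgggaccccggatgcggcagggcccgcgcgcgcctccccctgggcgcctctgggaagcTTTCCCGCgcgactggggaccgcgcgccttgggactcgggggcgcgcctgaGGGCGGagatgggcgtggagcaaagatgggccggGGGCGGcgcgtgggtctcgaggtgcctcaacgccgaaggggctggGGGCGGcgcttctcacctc
p16Ink4a start: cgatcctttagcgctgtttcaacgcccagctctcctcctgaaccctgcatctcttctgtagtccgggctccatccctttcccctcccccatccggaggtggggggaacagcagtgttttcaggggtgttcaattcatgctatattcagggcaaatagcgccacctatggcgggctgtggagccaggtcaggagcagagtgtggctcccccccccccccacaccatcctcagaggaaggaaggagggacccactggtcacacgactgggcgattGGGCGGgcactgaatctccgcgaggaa
The p19Arf window is 77% G and C with 45 CpG dinucleotides, 1 E2F match and 3 GC boxes. The p16Ink4a window is 60.3% G and C with 12 CpG dinucleotides, no E2F match and 1 GC box. Of 32851 such windows, 1.068% held TTTCCCGC, 0.5144% held TTTGGCGC and 35.66% held GGGCGG. These matches describe the letters and not a bound site.

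Cdkn2a signal was near the limit of this depth and came mostly from lymph nodes, spleen and thymus. Its 2 rows differed in 9 of 74 libraries, and in each of the 9 the p19Arf row NM_009877 was the higher one. The rows were identical in the others, where p16Ink4a and p19Arf transcripts could not be told apart. A row was above 0 in 32 libraries, and that of NM_009877 was used in tissues. In mesenteric lymph nodes the p16Ink4a row had 6.28, 6.42 and 5.87 in aged and 0.936, 0 and 0 in young mice. The row used had 6.91, 6.42 and 5.87 in aged and 0.936, 0.527 and 0.975 in young mice there. These values stand for 11, 5 and 5 reads in aged nodes and 1 read in each young node. Every aged library lay above every young one, as for 9.02% of all genes tested there, with a log2 difference of 2.04, a standard error of 0.55 and an adjusted p of 0.30. Cdkn2a passed the filter on low values through its aged libraries alone, so a difference here was built into being tested.

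Cervical lymph nodes and spleen also had every aged library above every young one. Cervical lymph nodes had 7.76, 5.35 and 9.00 in aged and 4.15 and 2.28 in young mice, with a log2 difference of 1.00 and an adjusted p of 0.76, and 12.8% of all genes tested there did not overlap in that direction. Spleen had 2.64, 1.26 and 5.40 in aged mice (2, 1 and 9 reads) and was listed at 0 in all 3 young mice. Too few spleen libraries passed 2 for a test of its own, and 8.48% of the genes tested in spleen had an aged group wholly above. In one fit of all tissues, mesenteric lymph nodes (adjusted p = 0.0411) and spleen (adjusted p = 0.0435) passed, in a fit that called 0.133% and 0.249% of 17238 genes higher in these tissues. With 1 read or none in every young library of both, these calls rest on aged values near the detection limit. In mesenteric lymph nodes the adjusted p ran from 0.0411 to 0.69 over all alternatives. Inguinal lymph nodes overlapped, with 4.46, 3.06 and 0 in aged and 3.04, 0 and 1.33 in young mice. Thymus had 0, 2.19 and 3.00 in aged and 0, 1.07 and 0 in young mice.

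Outside lymph nodes, spleen and thymus Cdkn2a was not detectable or rested on 1 read. It was listed at 0 in every library of choroid plexus, bone marrow, hippocampus and lung, and at 1 read at most in colon and liver. In parabionts all 5 old animals had 1 read, as did 2 of 3 young heterochronic animals, and the 3 young isochronic animals had none. A difference of 1 read cannot be told from none at this depth.

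Cdkn2b (NM_007670), which encodes p15, the INK4 inhibitor induced by TGF-beta, was above 0 in 2 and below 0 in 6 of 8 tissues tested, and in 4 and 4 without young mouse 2. Spleen was -0.72 with that mouse and 0.12 without it, and mesenteric lymph nodes were -0.64 with it and 0.20 without it, on the log2 scale. Lung had 20.1, 21.8 and 10.7 in aged and 47.6, 23.0 and 43.6 in young mice. The aged libraries lay below the young ones, as for 6.42% of all genes tested in lung, with a log2 difference of -1.07 and an adjusted p of 0.37. Young mouse 2, at 23.0, held a hepatocyte marker signal of 72618 in lung, where the other lung libraries reached 308 at most, and without it the log2 difference was -1.39 with an adjusted p of 0.0608. Inguinal lymph nodes had 7.44, 11.2 and 8.39 in aged and 6.07, 0.814 and 2.66 in young mice, a log2 difference of 1.46 with an adjusted p of 0.84 that was 0.96 without young mouse 2, where 6.36% of all genes had an aged group wholly higher. Thymus had 4.02, 4.38 and 0.999 in aged and 5.94, 8.53 and 4.82 in young mice, again without overlap (adjusted p = 0.45), as for 8.09% of all genes in that direction. The 0.814 in inguinal lymph nodes and the 0.999 in thymus are each the value of 1 read in their library. With each tissue fitted by itself, neither Cdkn2a nor Cdkn2b was called in any tissue.

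Cdkn2c (NM_007671), which encodes p18, an INK4 inhibitor of lymphocyte development, had the smallest adjusted p of the 5 inhibitors over the tissues, in thymus. It had 23.0, 30.7 and 21.0 in aged thymus, against 15.8, 12.8 and 9.10 in young thymus. Every aged library was above every young one, as for 11.6% of all genes tested in thymus. The log2 difference was 0.94 with a standard error of 0.31, and the adjusted p of 0.18 did not pass in a tissue where 1.1% of genes were called. In inguinal lymph nodes aged mouse 3 had 42.0, against 5.95 and 3.06 in the other aged mice and 4.55 to 6.64 in young mice. In liver it had 4.09 and 3.79 in aged and 4.46, 11.2 and 5.49 in young mice, a log2 difference of -0.62 that did not pass and was -0.27 without young mouse 2, where 8.25% of all genes had an aged group wholly lower. In choroid plexus Cdkn2c was at 1 read or 0 and was not tested.

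**Figure D4:**
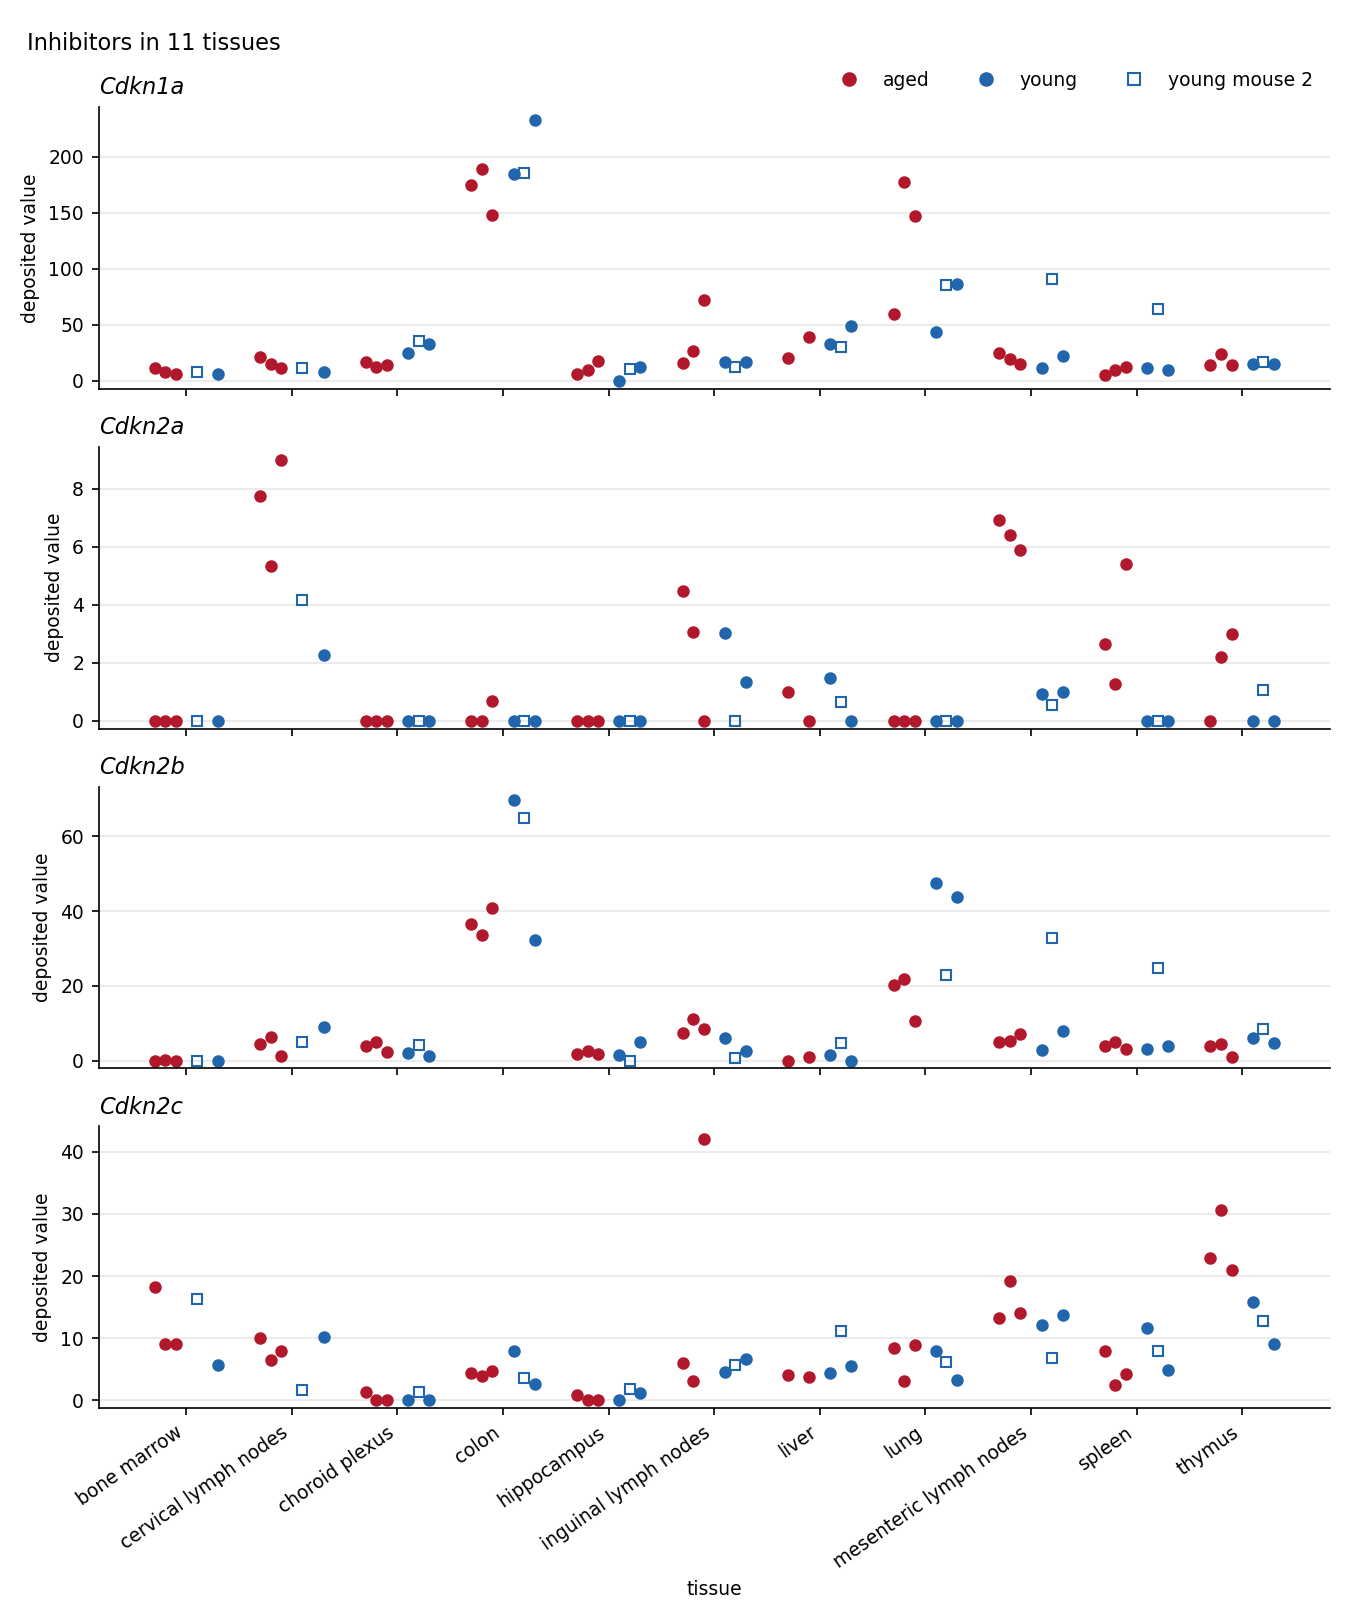
Deposited values (y axes, linear) of Cdkn1a, Cdkn2a, Cdkn2b and Cdkn2c by tissue, one point per library, aged left of young, with young mouse 2 as open squares. Cdkn2a lies above 5 in aged mesenteric and cervical lymph nodes and at 0 in choroid plexus, and the open squares of Cdkn1a in mesenteric lymph nodes and spleen lie at 91.2 and 64.0.

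The inhibitors were set against the D cyclins in each library as the mean log2(value + 1) of the 5 inhibitors minus that of the 3 cyclins. Genes differ in length, so only differences between groups are read, and no test was made. Aged minus young was above 0 in 5 tissues, from 0.02 in cervical to 0.31 in inguinal lymph nodes, and below 0 in 6, from -0.05 in mesenteric lymph nodes to -0.46 in bone marrow. Inguinal lymph nodes were the single tissue whose aged and young libraries did not overlap, at -3.66 ± 0.08 and -3.97 ± 0.18 (SD, n = 3 each). Without Cdkn2a and Cdkn2b that difference was 0.06. Leaving out these 2 genes also moved lung from -0.30 to 0.09, and spleen to -0.86, with aged libraries wholly below young ones. With all 5 inhibitors the spleen difference was -0.40, and it was -0.05 without young mouse 2. Without young mouse 2, the difference was 0.04 in bone marrow, 0.23 in mesenteric lymph nodes and -0.10 in hippocampus, each of the opposite sign.

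In choroid plexus the inhibitor balance averaged -4.29 ± 0.13 in aged and -4.50 ± 0.29 in young mice (SD, n = 3 each), a difference of 0.20 with overlap. It was 0.36 without young mouse 2, with no overlap, and -0.09 without Cdkn2a and Cdkn2b. In parabionts it averaged -3.15 ± 0.29 in old heterochronic (n = 2), -3.40 ± 0.13 in old isochronic, -3.12 ± 0.19 in young heterochronic and -3.49 ± 0.15 in young isochronic animals (SD, n = 3 each). Young heterochronic animals did not overlap young isochronic ones, with a difference of 0.37 that became 0.19, with overlap, without Cdkn2a and Cdkn2b. Age differences were -0.03 in heterochronic and 0.09 in isochronic parabionts. Without Cdkn2a and Cdkn2b they were -0.09 and -0.11, and with a pseudocount of 4 they were -0.06 and -0.005. The sign in isochronic parabionts therefore depended on genes near the detection limit and on the pseudocount.

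**Figure D5:**
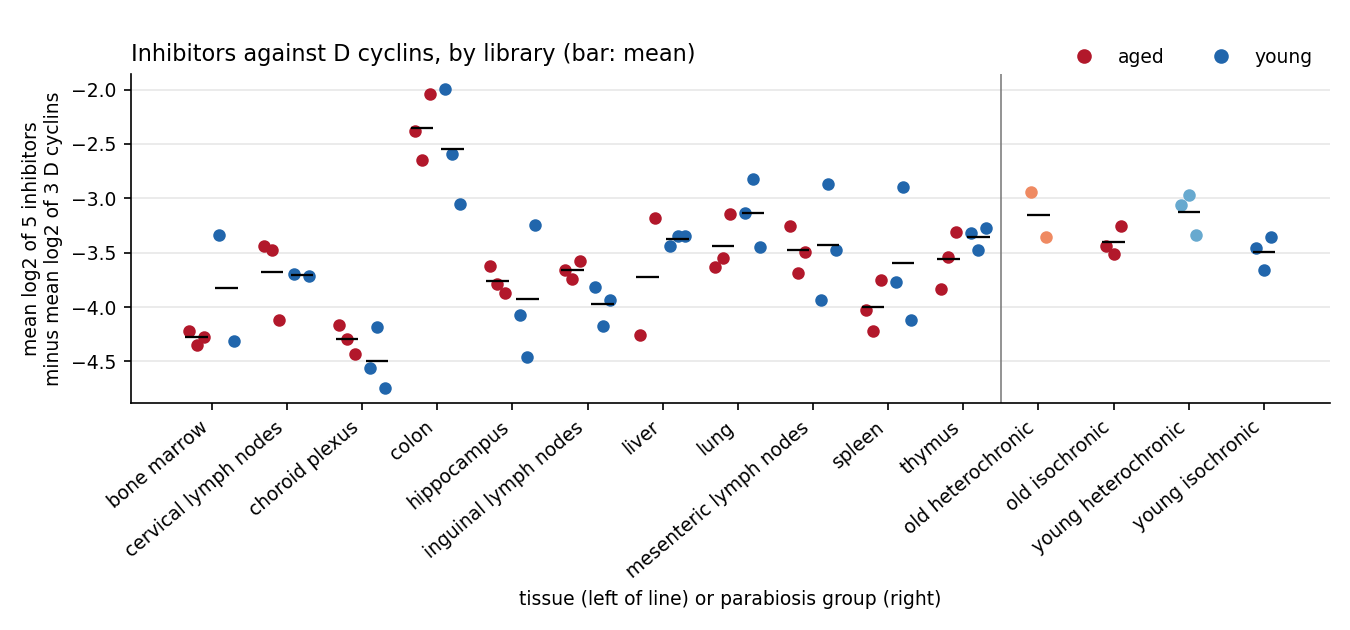
Mean log2(value + 1) of the 5 inhibitors minus that of the 3 D cyclins (y axis), one point per library and a bar at the group mean, by tissue (left of the line, aged left of young) and by parabiosis group (right). Colon lies highest and choroid plexus and bone marrow lie low, and the ages overlap in all tissues but inguinal lymph nodes.

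Other genes of the pathway were counted over the 15 age and parabiosis comparisons. Of 23 further Rb pathway genes, 24 proliferation markers and 20 senescence-associated genes, none was called in either direction in 310, 292 and 194 tested pairs. Over these comparisons the share of all genes called ran from 0.0% to 1.1% (thymus). At such shares, lists of this size would hold few calls or none, so the absence of calls is not read as a trait of these genes. Of 20 p53 pathway genes, 1 of 284 pairs was called: Phlda3, a p53 target that restrains Akt, averaged 89.1 ± 18.6 in aged and 37.4 ± 5.25 in young thymus (SD, n = 3 each), a log2 difference of 1.22 with an adjusted p of 0.0223, in a tissue where 1.1% of all genes were called. Its adjusted p ran from 0.0135 to 0.557 over the alternatives, and it did not pass without aged mouse 1 (0.0779), young mouse 1 (0.0742) or young mouse 3 (0.0678). In choroid plexus 7 of the 24 proliferation markers were tested, with 3 above and 4 below 0 and a median log2 difference of -0.10, beside 0.00 over all genes. Rrm1, a subunit of ribonucleotide reductase, averaged 6.39 ± 2.36 in aged and 15.7 ± 2.05 in young choroid plexus (SD, n = 3 each, adjusted p = 0.50). Cdkn1c, the third Cip/Kip inhibitor, averaged 303 ± 39.0 in aged and 257 ± 14.5 in young choroid plexus (SD, n = 3 each, adjusted p = 0.87).

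Proliferation markers lay on opposite sides of 0 in different lymphoid tissues. All 24 were above 0 in spleen, with a median log2 difference of 0.90, beside 0.01 over all genes, and 23 of 24 were above 0 in mesenteric lymph nodes, with a median of 0.62. Mcm2, a subunit of the replicative helicase, averaged 51.3 ± 20.9 in aged and 15.9 ± 7.04 in young spleen (SD, n = 3 each, adjusted p = 0.22). In inguinal lymph nodes 20 of 23 were below 0, with a median of -0.69. In hippocampus all 9 tested were below 0, with a median of -0.61, beside 0.14 over all genes. No marker passed the test in these tissues, and the part of young mouse 2 and of aged mouse 3 in these medians was not tested.

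Genes whose levels followed each member most closely were ranked by Pearson correlation of log2(value + 1) over 52 tissue libraries without young mouse 2, among 11907 genes. These libraries share organs, mice and scaling, so the coefficients are descriptions. Ccnd2 ran closest to Cd63 (0.763), Pdlim4 (0.729) and Mks1 (0.725), and Ccnd1 to Pxdc1 (0.870), Flt4 (0.862) and C4b (0.826). Ccnd3 ran closest to Bysl (0.909), Agtrap (0.834) and Fbxl14 (0.813). Cdk4 ran with Hmgb2 (0.881), Mcm7 (0.875) and Cdca8 (0.872), the last 2 in DNA replication and mitosis, and Cdk6 with Ankrd13a (0.813), Foxm1 (0.811) and Capn1 (0.807). Among inhibitors, Cdkn1a ran with Anxa4 (0.862), Tspan1 (0.850) and Plet1 (0.846), and Cdkn1b with Myb (0.764), Polr2a (0.733) and E2f2 (0.722). Cdkn2a ran with Ctla4 (0.829), Ccl19 (0.805) and Havcr1 (0.777), where Ctla4 is a T cell inhibitory receptor and Ccl19 a chemokine of lymph nodes. Cdkn2b ran with Nupr1 (0.845), Slc52a3 (0.841) and Ehf (0.840), and Cdkn2c with Smarcd2 (0.849), Zc3hav1 (0.821) and Ifngr1 (0.812).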

How the data were processed

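RNA sequencing of 74 libraries was analysed, 63 from 11 tissues and 11 from choroid plexus of parabionts, of 75 samples listed. Bone marrow of young mouse 1 had no matching column, and 1 column that matched no sample was not used. The deposited unit is a scaled signal per RefSeq transcript; the authors used TopHat and mm9, per the submitters' processing notes. How reads were counted and scaled, and whether by strand, is not given in the sources used here. Judged from the values, one factor scales each library: 78.0% to 85.6% of deposited signal values above 0 in tissues and 85.3% to 86.8% in parabionts were whole multiples of the value of 1 read, within 0.001. The rest hold fractions, so whole counts were not recovered and a test on log2 values was used. Depth is the sum of a column over the value of 1 read.

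For each gene, the transcript row of highest mean was used. Differences were fitted with limma 3.58.1 in R 4.3.3 on log2(value + 1), with a mean-variance trend and robust variances, for genes above 2 in a number of libraries no less than the size of the smaller group. A fold on this scale understates the change of low genes. Calls were made where the p, adjusted by Benjamini-Hochberg over all genes tested, was under 0.05. Each tissue was fitted by itself, the 4 parabiosis groups together, and choroid plexus against the mean of the other 10 tissues in one fit with a term for the mouse. The fits were tested on simulated data. Tables and figures used Python 3.11.15, pandas 2.3.3, scipy 1.17.1 and matplotlib 3.10.9.

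The 10 genes and the gene lists were chosen with earlier results of these data known. All 10 genes are named, and of other lists up to 4 called genes with the smallest p per comparison or, with none called, genes among the 2 with the smallest p. For each of the 10 genes, the 3 genes with the highest correlation are named, among those with a mean value of at least 5. Alternatives were another pseudocount (4), no filter, other scalings, limma without trend, voom weights, one fit of all tissues, a replicate block and leaving out each library. Nothing in the labels says that libraries of a group share an animal, and p-values measure the spread between these libraries.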

Additional observations from a re-analysis of the deposited data

How the results depend on the processing

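The Ccnd2 differences in choroid plexus and parabionts kept their direction under all alternatives tried. Ccnd2 in choroid plexus ran from -1.10 to -0.96 on the log2 scale over all alternatives, and the same range held as each library was left out, with adjusted p up to 0.00118. It lost its call with all tissues in one fit (-1.03, adjusted p = 0.255) and without the trend (-1.03, adjusted p = 0.467). In isochronic parabionts it ran from -0.55 to -0.49 as libraries were left out, and it was -0.52 without the trend (adjusted p = 0.253). In heterochronic parabionts the age difference ran from -0.50 to -0.34 as libraries were left out, and it passed with equal sums (-0.43, adjusted p = 0.0235) and quantile normalization (-0.47, adjusted p = 0.00124). Of the 10 genes, 1 pair of gene and tissue was called, against 2 with all tissues in one fit (Cdkn2a in mesenteric lymph nodes and spleen) and 0 without the trend. In parabionts 1 pair was called, against 2 with equal sums, 2 with quantile normalization and 0 without the trend. The causes of these changes were not tested.

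Counts of called genes over all genes moved with the settings. Choroid plexus had 34, and 6 to 57 under the alternatives. Old against young isochronic parabionts had 25, and 3 to 45. Old against young heterochronic parabionts had 18, and 1 to 60 with libraries left out included. Thymus had 132, and 0 to 266, liver had 2, and 0 to 219, and bone marrow had 6, and 0 to 136. Cervical lymph nodes had 4, and 1 to 95, mesenteric lymph nodes had 4, and 0 to 30, and inguinal lymph nodes had 0, and 0 to 27. Colon had 15, and 0 to 43, hippocampus had 0, and 0 to 60, lung had 3, and 1 to 43, and spleen had 18, and 7 to 68. Heterochronic against isochronic parabionts had 0 in the young, and 0 to 6, and 0 in the old, and 0 to 73.

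The replicate numbers of aged and young mice mark different animals. Correlations of same-numbered libraries, taken after the mean of each group was removed, ran from -0.194 to 0.176, and in 0 of 11 tissues were all over 0.1. With so few libraries per group, removing the mean ties these values to each other, so they cannot settle whether libraries were paired. With the replicate block, Ccnd2 in choroid plexus was -1.03 with an adjusted p of 6.94e-06. Parabionts share no numbers between groups. Their labels do not say which animals were joined to each other, so whether some of these libraries come from partners is not known.

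Depth limits Cdkn2a, Cdk6 and Cdkn2c, which rest on few reads in most libraries. Outside colon and lung, it limits Cdkn2b in the same way.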
